A study of Mus musculus with 8 samples.

Results

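The genes described here are the protein-coding Wnt ligands, their receptors and co-receptors, their secreted antagonists, the R-spondin axis and the intracellular relay and feedback target genes. They were taken by gene symbol from the deposited table, which lists 60 of them among 54532 genes. They comprised 19 ligands, 12 receptors (10 Frizzled genes with Lrp5 and Lrp6), 11 secreted antagonists, 9 genes of the R-spondin axis, 6 genes of the relay and its nuclear factors, and 3 further feedback targets (Axin2, Nkd1 and Nkd2). The tissue was the enamel organ of first molars from wt C57BL/6 pups without treatment, taken at P5 (secretory stage, when ameloblasts lay down enamel matrix) or P12 (maturation stage, when the enamel hardens). A library pooled 5 pups, and each age has 4 libraries, numbered 1, 3, 4 and 5 at P5 and 1 to 4 at P12. Values below are in that order, and n = 4 pools per age throughout. The labels have the RNA extracted from the molars left after dissection, and the study's methods from pooled enamel organs after the pulp chambers were cleared.

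Wnt proteins are secreted, lipid-modified signals that bind Frizzled receptors together with the co-receptors Lrp5 and Lrp6. In the canonical branch, receptor binding stops the destruction complex of Axin, Apc and Gsk3 from breaking down β-catenin, which then acts in the nucleus with the Tcf and Lef factors. Several genes switched on in this way, such as Axin2, Notum and Znrf3, damp the signal in turn. The pathway is needed in the dental epithelium from the first tooth bud, and mutations of WNT10A in people are a cause of missing teeth.

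Library totals ranged from 16574548 to 22013456 counts. A normalized count is the deposited read count scaled by edgeR's TMM method to a common library size of 19006280. Of 12 enamel epithelium markers none was at 0 in all libraries, and their summed normalized count fell from between 5076850 and 5714860 at P5 to between 881538 and 1340090 at P12. RNA of other tissues was present too. The summed normalized count of 8 mesenchyme markers ran from 894436 to 1073260 at P5, and from 755146 to 1023610 at P12. For 6 oral epithelium markers the sum ran from 1398 to 1680 at P5, and the P12 libraries held 29600.3, 34633, 22266 and 4228. For 5 endothelial markers it ran from 2278 to 2721, and later from 4397 to 4687. No marker of these 4 lists was at 0 in all libraries. P5 replicate 5 and P12 replicate 4 stood apart from their groups. P5 replicate 5 had the lowest normalized count of the maturation gene Klk4, at 703 against 2586 to 3589 in the other P5 libraries, and P12 replicate 4 had little oral epithelium RNA, with Krt13 at 510.0 against 5840 to 11244. In such bulk samples, fewer cells of a type and less RNA per cell cannot be told apart.

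Of the 60 genes, 53 passed edgeR's filter on low counts. Of these, 25 were lower and 17 were higher at P12 at an adjusted p under 0.05 (quasi-likelihood test of edgeR, adjusted by the Benjamini-Hochberg method across all 16440 tested genes). The background was high, since 57.2% of all genes tested were called, 28.4% as lower and 28.8% as higher. Among the tested protein-coding genes alone, the kind to which all 60 belong, 60.0% were called. The share of called Wnt pathway genes was 79.2%. Changes of at least 1 log2 unit were called for 24 of the 53, with 13 lower and 11 higher, against 21.5% of all genes. The median of the absolute log2 fold change was 0.88 for the 53 genes and 0.41 for all genes, while the median of the signed values was -0.22 and 0.01. Values did not overlap between the ages for 38 of the 53 genes, against 52.5% of all genes. Because 2 of the 53, Wnt1 and Wnt3, passed the filter through 1 age alone, these counts and medians describe the tested genes and not all 60. Scaling by total count alone, which shifted the median of all genes to 0.38, gave 14 lower and 21 higher. Over all 16440 genes that scaling gave 2330 lower and 8885 higher. The 20 most abundant genes held 34.1% to 35.7% of a library's counts at P5 and 16.8% to 19.0% at P12, and total count scaling includes them. TMM scaling without the 20 most abundant genes gave 25 lower and 17 higher, against 4660 lower and 4763 higher of all genes. It left the calls of all 53 unchanged. Without both libraries that stood apart, 27 were lower and 19 were higher, against 4855 lower and 4921 higher of all genes.

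**Figure D1:**
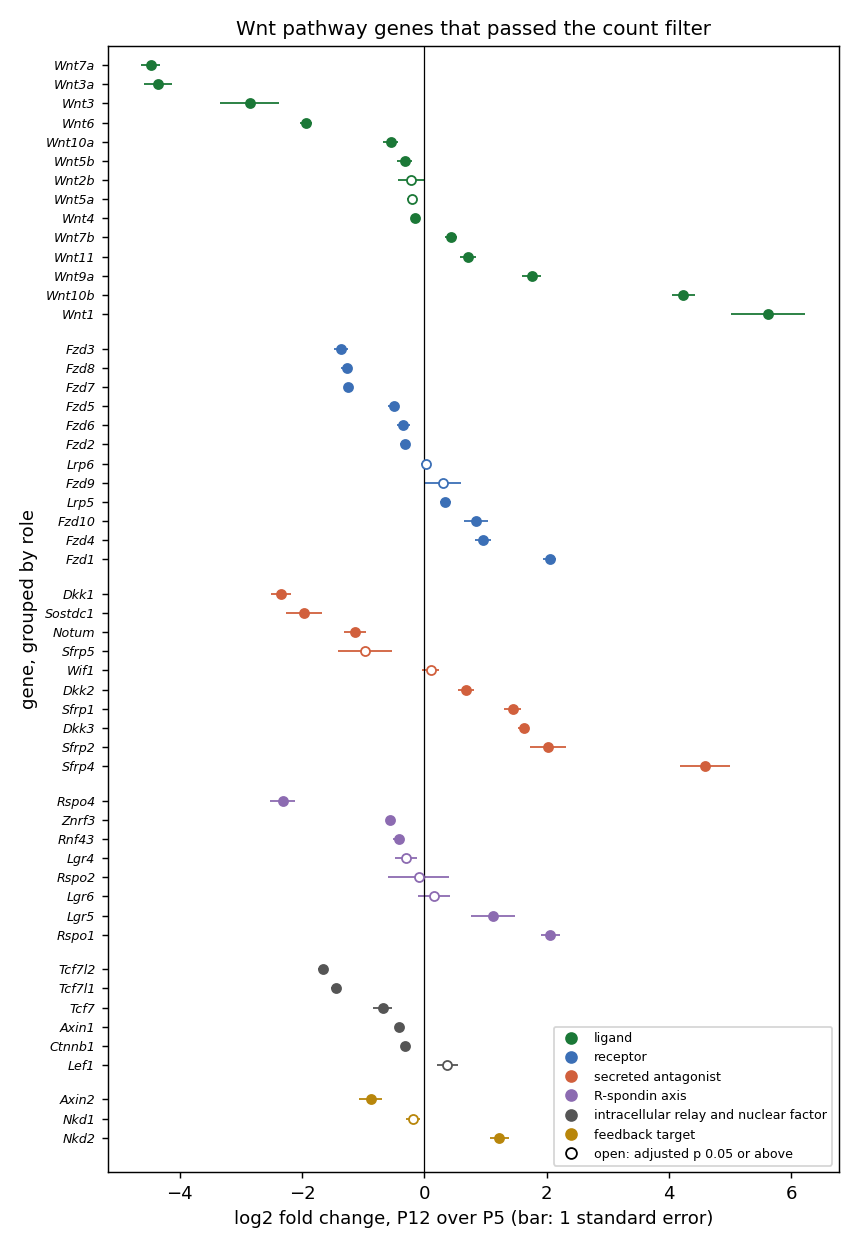
Log2 fold change from P5 to P12 (horizontal axis, log2 units) of the 53 tested genes, grouped and coloured by role, with 1 standard error; filled points passed an adjusted p of 0.05. Both directions occur within each of the ligands, receptors, secreted antagonists and R-spondin genes. Values run from Wnt7a at -4.48 to Wnt1 at 5.63, which rests on 1 read in all P5 libraries together and passed the filter through P12 alone. The next highest is Sfrp4 at 4.59, which rests on 14 to 33 reads per library at P5. Wnt4, Wnt5b, Fzd2, Fzd6 and Ctnnb1 turn positive under total count scaling.

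The ligands changed in both directions. Of the 14 that were tested, 7 fell (Wnt7a, Wnt3a, Wnt3, Wnt6, Wnt10a, Wnt5b and Wnt4, of which Wnt5b and Wnt4 were higher under total count scaling), 5 rose (Wnt10b, Wnt1, Wnt9a, Wnt11 and Wnt7b) and Wnt5a and Wnt2b did not pass the test. The largest fall was that of Wnt7a (ENSMUSG00000030093, chromosome 6, 91363981 to 91411363, reverse strand of GRCm38), an epithelial ligand known from limb patterning. Its normalized count was 1837, 1857, 1905 and 1892 at P5 and 76.2, 54.8, 103 and 105 at P12, a 22.3-fold fall (log2 fold change -4.48, standard error 0.15, adjusted p = 2.5e-09). The P5 libraries were close to each other, with an SD of 31.3 around a mean of 1873, and no P12 library came near them. Wnt3a, a strong activator of β-catenin, was at 792, 757, 853 and 1298 at P5 and at 55.7, 48.1, 47.3 and 27.1 at P12 (log2 fold change -4.35, standard error 0.23, adjusted p = 4.7e-08). P5 replicate 5 was the highest and P12 replicate 4 the lowest library for Wnt3a, and the ages did not overlap.

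Wnt6, a ligand of surface ectoderm, had the highest ligand level per length at P5. Its normalized count was 3058, 3069.9, 2994 and 3770.2 at P5 and 860.0, 814, 945 and 750.0 at P12, so that it fell 3.83-fold (log2 fold change -1.94, standard error 0.10, adjusted p = 3.2e-08). Wnt10a, the ligand whose loss leads to missing teeth, was at 1796, 1880.4, 2046 and 2281 and then at 1572, 1529.8, 1333 and 1039 (log2 fold change -0.55, standard error 0.12, adjusted p = 0.0027), a smaller fall in which the ages also did not overlap but whose call was lost under total count scaling (-0.17, adjusted p = 0.31). Wnt3 had few reads, with counts of 28, 30, 17 and 32 at P5 and 9, 5, 6 and 0 at P12 before normalization (log2 fold change -2.85, standard error 0.48, adjusted p = 3.9e-04). It passed the filter on low counts through P5 alone, the age where it was high, so that its call is no independent support for a fall.

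Wnt10b (ENSMUSG00000022996, chromosome 15, 98770712 to 98778150, reverse strand), a canonical ligand known from bone and hair follicle, showed the largest rise among ligands that were covered at both ages. Its normalized count was 345, 295, 309.8 and 157 at P5 and 4837, 5111, 5541 and 5293 at P12, 18.9-fold higher (log2 fold change 4.24, standard error 0.19, adjusted p = 1.6e-08). All 4 P12 libraries were within 4837 and 5541. The summed oral epithelium markers rose over the same ages and were lowest at P12 in replicate 4 (4228 against 22266 to 34633), and their part in the Wnt10b level was not tested. At P5 the lowest library was replicate 5, which also had the least Klk4; the part of that library's make-up in the P5 spread was not tested. Without replicate 5 the log2 fold change was 4.03. Wnt9a rose from 189, 151, 195 and 138 to 574, 646, 616 and 424 (log2 fold change 1.76, standard error 0.15, adjusted p = 2.4e-06). Wnt11, a ligand of the non-canonical branch, went from 349.7, 289.6, 289 and 228 to 535, 476, 493 and 388 (log2 fold change 0.72, standard error 0.13, adjusted p = 8.0e-04), and Wnt7b, expressed in oral ectoderm during tooth initiation, from 892, 1009.5, 1008 and 1040.5 to 1474, 1479, 1292 and 1101 (log2 fold change 0.44, standard error 0.10, adjusted p = 0.0024). In all of these the highest P5 library lay below the lowest P12 library.

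Wnt1 had 1 read in all P5 libraries together and 31, 26, 18 and 21 reads in the P12 libraries. Scaled for library size this is a ratio of 70.1, with a 95% exact interval from 12.3 to 2797 that covers counting error only. The ratio was taken from the reads of each age pooled. Wnt1 passed the filter on low counts through P12 alone, the age where it was high. Neither its call nor this ratio is independent support for a rise. Wnt8b was too low to be tested, with reads of 4, 15, 13 and 21 at P5 and 1, 1, 2 and 2 at P12. Wnt16 was also untested, with reads of 1, 0, 3 and 8 at P5 and 25, 38, 19 and 1 at P12, and its single read in P12 replicate 4 put that library inside the P5 range. Wnt2, Wnt9b and Wnt8a had at most 3 reads in any library, and a change in them was not detectable at this depth. Wnt8a had no read in any library.

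Wnt5a and Wnt4, both abundant, moved little. Wnt5a, the best known non-canonical ligand and a gene of dental mesenchyme, was at 5685, 5322, 5088 and 4528 at P5 and 4428, 4431, 4171 and 4898 at P12 (log2 fold change -0.20, standard error 0.08, adjusted p = 0.053), and the ages overlapped. Its adjusted p was 0.012 without P5 replicate 5 and 0.015 without P12 replicate 4. Wnt4 was at 4078, 3942, 4322 and 4240.1 and at 3738, 3715, 3729 and 3667 (log2 fold change -0.16, standard error 0.06, adjusted p = 0.031), a call that was lost without P5 replicate 4 (adjusted p = 0.089), without P12 replicate 2 (0.058) or without P12 replicate 3 (0.069). Wnt5b ranged from 378 to 474 at P5 and from 284 to 417 at P12 (log2 fold change -0.32, standard error 0.12, adjusted p = 0.039), with overlap, and its call was lost when any of 6 single libraries was left out (P5 replicates 1, 3 and 5 and P12 replicates 2, 3 and 4; adjusted p between 0.058 and 0.11). Wnt2b stayed between 31.1 and 48.1 in all libraries (adjusted p = 0.41).

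**Figure D2:**
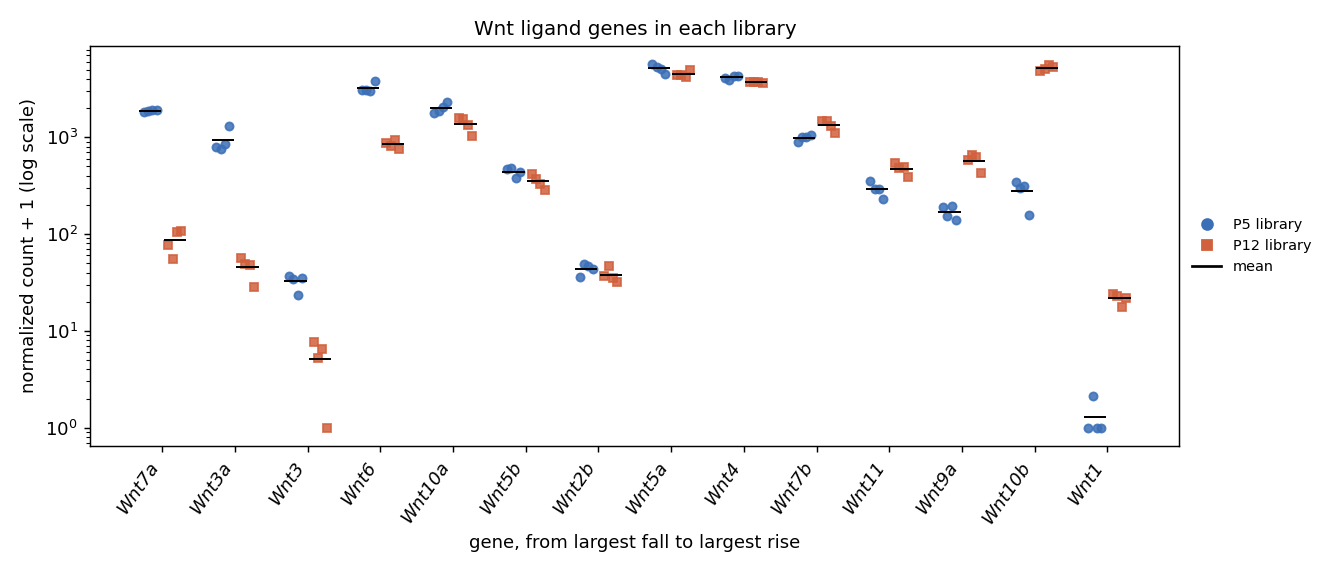
Normalized count plus 1 (vertical axis, log scale) of the 14 tested Wnt ligand genes in each library, P5 as circles and P12 as squares, with the mean as a line. Wnt7a, Wnt3a and Wnt6 were lower in all P12 libraries, and Wnt10b and Wnt9a were higher in all of them.

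Per kilobase of gene length, the order of the ligands also changed. At P5 the highest were Wnt6 at 1470.4 ± 167 normalized counts per kilobase (SD), Wnt4 at 988 ± 40.4, Wnt10a at 811 ± 86.6, Wnt5a at 659 ± 62.0 and Wnt7a at 590.4 ± 9.87, where the ranges of neighbours overlapped only for Wnt5a and Wnt7a. At P12 Wnt10b came first at 1528 ± 87.4, followed by Wnt4 at 885 ± 7.56, Wnt5a at 573 ± 38.7, Wnt10a at 554 ± 98.5 and Wnt6 at 384 ± 37.4, where Wnt5a overlapped Wnt10a and Wnt10a overlapped Wnt6. Of the summed ligand level per kilobase, Wnt6, Wnt7a and Wnt3a took between 25.4% and 29.4%, 10.2% and 11.2%, and 5.2% and 8.0% in the P5 libraries. Wnt10b took between 30.0% and 35.1% in the P12 libraries. The shares of Wnt4 (17.3% to 19.2% at P5 and 18.6% to 19.7% at P12) and Wnt5a (9.9% to 13.7% and 11.1% to 14.1%) overlapped between the ages. The summed level was 5449 ± 272 normalized counts per kilobase at P5 and 4679 ± 165 at P12 (SD).

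**Figure D3:**
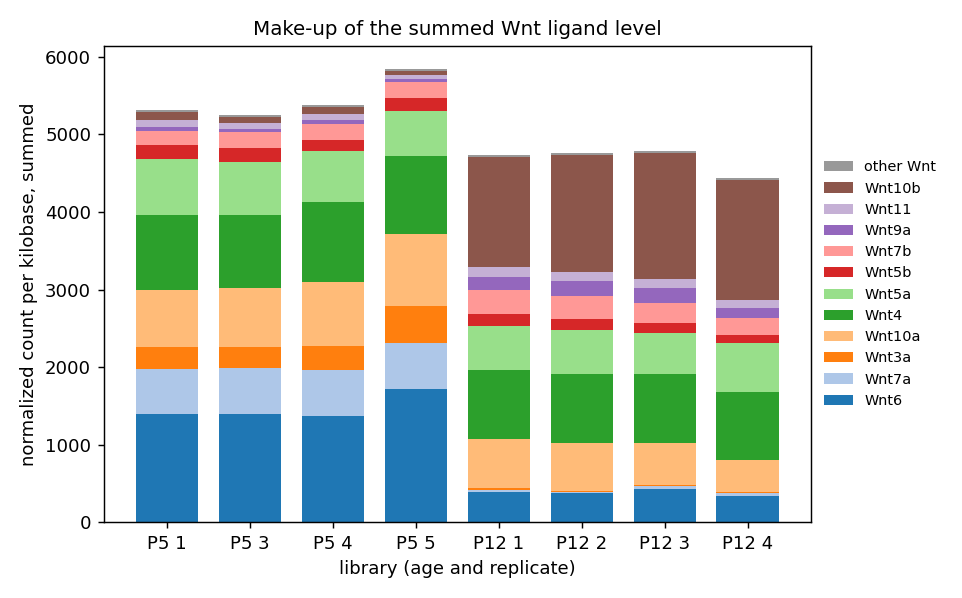
Normalized count per kilobase (vertical axis), summed over all 19 Wnt ligand genes and stacked by gene, for each of the 8 libraries. The blocks of Wnt6, Wnt7a and Wnt3a are large at P5 and thin at P12, where Wnt10b is the largest block at between 30.0% and 35.1% of the sum.

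Ligand genes form 4 pairs that lie next to each other in the genome with no other gene of the table between them. Wnt10b and Wnt1 lie 11706 bases apart on chromosome 15 and point away from each other, and both were called higher, Wnt1 with 1 read in all P5 libraries together and through the filter at P12 alone. Wnt6 and Wnt10a lie 6193 bases apart on chromosome 1 on the same strand, and both fell. Wnt3a and Wnt9a lie 16175 bases apart on chromosome 11, point away from each other and changed in opposite directions. The last pair is Wnt9b and Wnt3, 24328 bases apart on chromosome 11 and also pointing away from each other, of which Wnt9b was not detected above the floor. None of these 8 genes shares exonic bases with another gene of GENCODE M21 (0.0%), whereas antisense genes share 8.8% of those of Wnt11, 6.61% of Wnt7b and 4.58% of Wnt5a.

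The promoters of the 2 divergent pairs in which both genes were tested are shown. Each window runs from 250 bases before to 50 bases after the start given by RefSeq (GRCm38.p6), read 5′ to 3′ on the strand of the gene.
Wnt10b (chr15:98778101-98778400, reverse strand): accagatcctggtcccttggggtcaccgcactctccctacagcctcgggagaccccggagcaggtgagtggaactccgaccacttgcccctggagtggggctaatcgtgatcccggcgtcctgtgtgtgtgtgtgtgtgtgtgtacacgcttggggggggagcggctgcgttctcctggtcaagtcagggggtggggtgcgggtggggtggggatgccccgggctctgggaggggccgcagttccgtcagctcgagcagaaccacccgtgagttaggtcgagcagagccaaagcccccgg
Wnt1 (chr15:98789607-98789906, forward strand): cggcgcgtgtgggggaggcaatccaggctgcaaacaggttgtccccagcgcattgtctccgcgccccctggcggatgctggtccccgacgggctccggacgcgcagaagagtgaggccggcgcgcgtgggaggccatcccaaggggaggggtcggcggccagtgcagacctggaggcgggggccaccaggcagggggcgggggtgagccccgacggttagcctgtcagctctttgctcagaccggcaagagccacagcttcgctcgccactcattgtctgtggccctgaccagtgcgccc
Wnt3a (chr11:59290702-59291001, reverse strand): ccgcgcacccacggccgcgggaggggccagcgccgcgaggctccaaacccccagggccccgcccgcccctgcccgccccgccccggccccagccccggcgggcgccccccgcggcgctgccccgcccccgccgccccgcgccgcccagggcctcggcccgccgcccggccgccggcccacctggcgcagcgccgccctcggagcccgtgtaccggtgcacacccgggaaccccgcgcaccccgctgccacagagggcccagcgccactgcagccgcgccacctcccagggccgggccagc
Wnt9a (chr11:59306680-59306979, forward strand): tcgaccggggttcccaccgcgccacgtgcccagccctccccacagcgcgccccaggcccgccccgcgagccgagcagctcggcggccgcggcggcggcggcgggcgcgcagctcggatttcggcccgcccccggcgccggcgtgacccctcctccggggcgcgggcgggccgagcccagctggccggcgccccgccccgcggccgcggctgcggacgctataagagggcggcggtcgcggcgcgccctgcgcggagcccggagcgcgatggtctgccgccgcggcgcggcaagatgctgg

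G and C made up 66.3% of the Wnt10b window, 70.7% of that of Wnt1, 86.3% of that of Wnt3a and 83.3% of that of Wnt9a. The median was 67.3% over 49 windows of the 39 genes described here that have one, and 52.7% over all 32851 windows. The windows were searched for CTTTGAT, a core of the sequence that Tcf and Lef factors recognise, on both strands (CTTTGAT or ATCAAAG). It occurred in 2 of the 49 windows (4.08%) and in 3.73% of all windows, and in none of the 4 windows above. The 2 matches, in capitals, were in windows of Wnt11 and of Wnt5b.
Wnt11 (chr7:98834862-98835161, forward strand): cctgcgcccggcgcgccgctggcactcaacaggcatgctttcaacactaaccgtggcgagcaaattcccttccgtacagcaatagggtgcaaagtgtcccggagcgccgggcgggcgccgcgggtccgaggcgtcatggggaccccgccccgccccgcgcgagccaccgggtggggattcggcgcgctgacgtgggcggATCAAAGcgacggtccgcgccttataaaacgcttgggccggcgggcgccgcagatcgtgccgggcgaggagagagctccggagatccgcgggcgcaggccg
Wnt5b (chr6:119449337-119449636, reverse strand): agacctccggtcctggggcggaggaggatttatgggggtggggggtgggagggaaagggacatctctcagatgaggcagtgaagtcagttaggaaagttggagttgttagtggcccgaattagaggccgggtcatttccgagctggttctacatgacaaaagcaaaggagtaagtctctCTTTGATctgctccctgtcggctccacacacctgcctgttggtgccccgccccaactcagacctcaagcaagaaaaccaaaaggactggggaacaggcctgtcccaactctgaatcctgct

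The receptors also changed in both directions. Of 10 Frizzled genes, 6 fell (Fzd3, Fzd8, Fzd7, Fzd5, Fzd6 and Fzd2, of which Fzd6 and Fzd2 were slightly higher under total count scaling), 3 rose (Fzd1, Fzd4 and Fzd10), and Fzd9 was between 21.9 and 42.2 in all libraries (adjusted p = 0.39). Fzd7, a receptor of epithelial progenitors, was at 1823, 1709, 1807 and 1928 at P5 and 790.4, 729, 757 and 782 at P12 (log2 fold change -1.25, standard error 0.06, adjusted p = 2.9e-08). Fzd8, whose cysteine-rich domain was the first to be seen bound to a Wnt, was at 1095, 1156, 1231 and 942 and 506, 429, 472 and 429.7 (log2 fold change -1.27, standard error 0.09, adjusted p = 6.3e-07). Fzd3, a receptor of planar polarity, was at 911, 928, 812 and 1055 and 397, 287, 369 and 397 (log2 fold change -1.36, standard error 0.11, adjusted p = 1.8e-06). For all 3 every P12 library lay well below every P5 library.

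Fzd1 (ENSMUSG00000044674, chromosome 5, 4753839 to 4758035, reverse strand) changed the other way. Its normalized count was 258, 193, 212 and 203 at P5 and 978, 820.2, 838 and 946 at P12, 4.14-fold higher (log2 fold change 2.05, standard error 0.10, adjusted p = 3.6e-08), without overlap. Fzd4, a receptor of blood vessel endothelium among other cells, ranged from 129 to 169 at P5 and from 268 to 353 at P12 (log2 fold change 0.96, standard error 0.13, adjusted p = 7.6e-05). The summed endothelial markers rose over the same libraries (2278 to 2721 at P5 and 4397 to 4687 at P12), and their part in the level of Fzd4 was not tested. Fzd10 ranged from 73.8 to 114 and from 120.5 to 207 (log2 fold change 0.85, standard error 0.19, adjusted p = 0.003).

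Fzd6, a receptor of planar polarity, had the highest receptor level per length at both ages, at 653 ± 15.4 normalized counts per kilobase (SD) at P5 and 515 ± 87.4 at P12. In normalized counts it was at 3247, 3152, 3089.9 and 3089.6 and 2123, 2291, 2428 and 3084 (log2 fold change -0.34, standard error 0.10, adjusted p = 0.013). P12 replicate 4 came close to the lowest P5 libraries, and the other P12 libraries were well below them. Fzd7 and Fzd8 ranked next at P5, and at P12 Fzd1 did, at 213 ± 18.6 per kilobase, with a range that overlapped that of Fzd2. Fzd5 ranged from 1144 to 1491 at P5 and from 881 to 1039 at P12 (log2 fold change -0.50, standard error 0.09, adjusted p = 4.7e-04), without overlap, and under total count scaling the call was lost (-0.13, adjusted p = 0.19). Fzd2 ranged from 773 to 932 and from 606 to 781 (log2 fold change -0.31, standard error 0.09, adjusted p = 0.01), with overlap. The co-receptor Lrp6 was at 2096 ± 64.2 (SD) at P5 and 2129 ± 210.1 at P12 (adjusted p = 0.81), and Lrp5 was at 796, 800.5, 809 and 904 at P5 and 1169, 1109.6, 1026 and 899 at P12 (log2 fold change 0.35, standard error 0.09, adjusted p = 0.0051), where only P12 replicate 4 fell within the P5 range. Of the exonic bases of Fzd5, 17.8% are shared with the antisense gene Gm38058, which had between 2 and 7 reads.

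**Figure D4:**
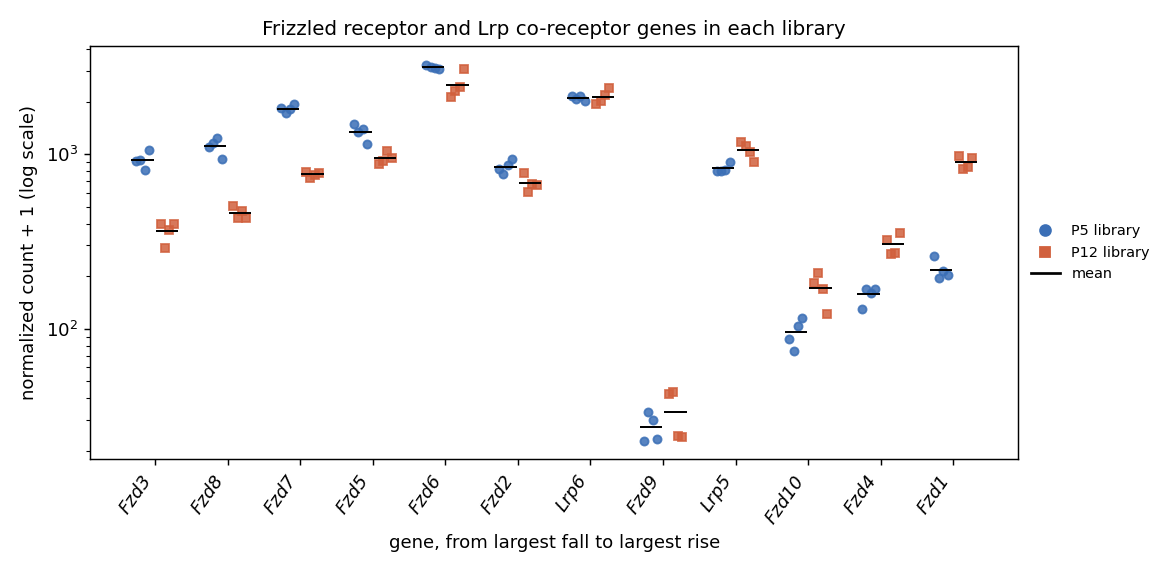
Normalized count plus 1 (vertical axis, log scale) of 10 Frizzled genes, Lrp5 and Lrp6 in each library, P5 as circles and P12 as squares, with the mean as a line. Fzd3, Fzd8 and Fzd7 were lower and Fzd1 and Fzd4 higher in all P12 libraries than in any P5 library.

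Among the secreted antagonists, Dkk1, Sostdc1 and Notum fell, Sfrp4, Sfrp2, Dkk3, Sfrp1 and Dkk2 rose, and Wif1 and Sfrp5 did not pass the test. Dkk1 (ENSMUSG00000024868, chromosome 19, 30545863 to 30549665, reverse strand), which blocks Lrp5 and Lrp6, was at 454, 461, 439 and 429.7 at P5 and 88.7, 117, 57.5 and 85.3 at P12, so that it fell 5.09-fold (log2 fold change -2.35, standard error 0.17, adjusted p = 4.8e-07). Sostdc1, an inhibitor of Wnt and BMP signals whose loss gives mice extra teeth, had the highest antagonist level per length at P5, 1735 ± 249.6 per kilobase (SD). Its normalized count was 2611, 2885, 3223 and 3641 at P5 and 492, 593, 621 and 1469 at P12 (log2 fold change -1.97, standard error 0.29, adjusted p = 1.6e-04). P12 replicate 4 held more than any other P12 library, which ranged from 492 to 621, but less than the P5 libraries. That library also had the highest summed enamel epithelium markers at P12, 1340090 against 881538 to 1179820, but the markers did not all go this way. Ambn was highest there, at 518550 against 208344 to 370379. Krt14 was lowest there, at 131212 against 163268 to 178109, and so was Krt5, at 123257 against 130730 to 141453. The part of these markers in the Sostdc1 count was not tested. Leaving out P12 replicate 4 gave -2.45 on the log2 scale for Sostdc1. Notum, a secreted enzyme that removes the lipid of Wnt proteins, was at 186, 168, 162 and 209.6 and 109, 78.5, 63.9 and 77.3 (log2 fold change -1.14, standard error 0.18, adjusted p = 2.1e-04). Of its exonic bases, 38.1% are shared with the antisense gene Notumos, which had between 3 and 21 reads.

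Secreted frizzled-related proteins bind Wnts through a domain like that of their receptors. Sfrp4 (ENSMUSG00000021319, chromosome 13, 19623104 to 19632994, forward strand) had the largest rise of the tested antagonists, with normalized counts of 18.0, 26.8, 43.5 and 14.8 at P5 and 875, 812, 448 and 311 at P12 (log2 fold change 4.59, standard error 0.41, adjusted p = 2.9e-06). Sfrp2 was at 197, 188, 219 and 126 and at 1069.7, 924, 575 and 381 (log2 fold change 2.03, standard error 0.30, adjusted p = 1.4e-04). In both genes P12 replicates 1 and 2 were the highest and replicate 4 the lowest, still above all P5 libraries. That order was not particular to them. Among the P12 libraries, replicate 1 was the highest for 26 of the 53 tested genes and replicate 4 the lowest for 23. Of the exonic bases of Sfrp2, 16.1% are shared with the antisense gene Gm26771, which had at most 6 reads. Among the mesenchyme markers, Col3a1 and Postn took the same order of libraries at P12. Col3a1 was at 4484, 4109, 4672 and 4393 at P5 and 86935, 64842, 35470.1 and 32390.0 at P12. Postn was at 1322, 1233, 1243 and 1065 and 26557, 24201, 13543 and 10699.6. Of the other mesenchyme markers, Lum was also called higher at P12 (log2 fold change 1.54). Col1a2 (-0.36), Pdgfra (-0.99) and Dcn (-0.49) were called lower. Col1a1 and Vim did not pass the test (adjusted p = 0.056 and 0.16). Pdgfra was at 4668, 4653, 4235 and 4089.8 and 2483, 2219, 2131 and 2036. Lum, Vim, Dcn, Col1a2 and Pdgfra also declined from replicate 1 to replicate 4 at P12. The part of connective tissue in the rise of Sfrp4 and Sfrp2 was not tested.

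Sfrp1, of the same family, was at 420.4, 332, 439 and 357 at P5 and 1327, 1077, 841 and 968 at P12 (log2 fold change 1.45, standard error 0.14, adjusted p = 5.7e-06). Dkk3, a divergent Dickkopf protein that does not bind Lrp6 as Dkk1 does, was at 1023, 1011, 1004 and 1014 and 3683, 3277, 2902 and 2624 (log2 fold change 1.62, standard error 0.10, adjusted p = 1.2e-07), and its P5 libraries lay close together. Dkk2 ranged from 129 to 150.3 and from 184 to 253 (log2 fold change 0.68, standard error 0.13, adjusted p = 7.9e-04). For these 3 genes the ages did not overlap. Wif1, which binds Wnt proteins directly, was at 3525, 3383, 3279.7 and 3355 and 4867, 3756, 2999.6 and 2917 (adjusted p = 0.55), and it had the highest antagonist level per length at P12 at 1498 ± 372 per kilobase (SD). Its P12 libraries spread on both sides of the P5 libraries. Sfrp5 ranged from 21.2 to 88.3 and from 15.1 to 44.7 (adjusted p = 0.078); without P12 replicate 1 the adjusted p was 0.02 and without P5 replicate 5 it was 0.021. Dkk4 had at most 3 reads in any P5 library and none at P12, which is not above the floor of 3 reads.

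**Figure D5:**
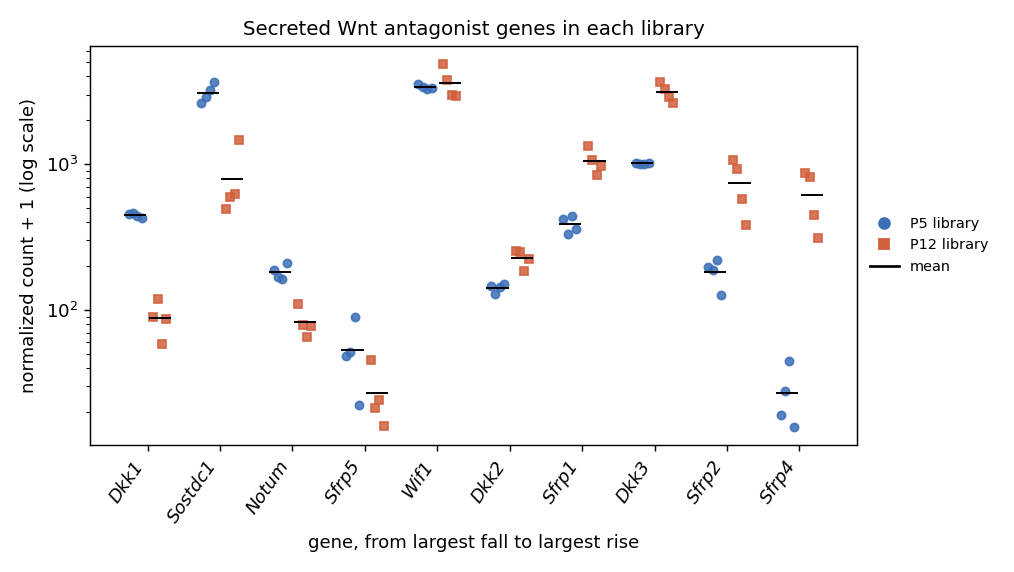
Normalized count plus 1 (vertical axis, log scale) of the 10 tested secreted antagonist genes in each library, P5 as circles and P12 as squares, with the mean as a line. Dkk1, Sostdc1 and Notum were lower, and Dkk2, Sfrp1, Dkk3, Sfrp2 and Sfrp4 higher, in all P12 libraries.

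R-spondins are secreted proteins that raise Wnt signalling by holding the ubiquitin ligases Rnf43 and Znrf3 away from the Frizzled receptors, with Lgr4, Lgr5 and Lgr6 as their own receptors. The 2 R-spondins with a called change moved in opposite directions. Rspo4, the R-spondin needed for nails in people, was at 176, 230.3, 208 and 282 at P5 and 54.3, 54.0, 33.4 and 37.1 at P12 (log2 fold change -2.31, standard error 0.21, adjusted p = 2.9e-06). Rspo1 was at 48.9, 40.2, 43.5 and 43.4 and 174, 222, 177 and 162 (log2 fold change 2.06, standard error 0.16, adjusted p = 8.2e-07). The ages did not overlap for either gene, and per kilobase Rspo4 was above Rspo1 in all P5 libraries and below it in all P12 libraries. Rspo2 had between 4 and 24 reads in all libraries (adjusted p = 0.89), and Rspo3, with 0 to 17 reads, was not tested.

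Rnf43 and Znrf3, which are also targets of the pathway, were lower at P12. Znrf3 was at 915, 838, 869 and 876 at P5 and 584, 591, 621 and 588 at P12 (log2 fold change -0.55, standard error 0.06, adjusted p = 1.3e-05), and Rnf43 at 510.4, 540.0, 610.3 and 629 and 412, 462, 441 and 397 (log2 fold change -0.42, standard error 0.09, adjusted p = 0.0016). Both sets of libraries were separate, although under total count scaling the call for Rnf43 was lost (adjusted p = 0.69). Lgr6 had the highest level per length of this group at both ages, at 528 ± 181 per kilobase (SD) at P5 and 589 ± 163 at P12. Its normalized count was 4615, 4122, 3915 and 1809 and 2792, 4149.7, 3715 and 5478 (log2 fold change 0.16, standard error 0.26, adjusted p = 0.63), and Lgr4 was at 3337, 3254, 3041 and 2357 and 1812, 2125, 2364 and 3489.9 (log2 fold change -0.29, standard error 0.18, adjusted p = 0.19). For both, P5 replicate 5 was the lowest P5 library and P12 replicate 4 the highest P12 library. Without both of these libraries the log2 fold change of Lgr6 was -0.25 (adjusted p = 0.069). Without P12 replicate 4, Lgr4 was lower at P12 with a log2 fold change of -0.52 and an adjusted p of 0.0020. Lgr5, a stem cell marker and target of the pathway, was low, with 22, 16, 29 and 13 reads at P5 and 87, 83, 33 and 45 at P12 (log2 fold change 1.12, standard error 0.36, adjusted p = 0.02). Its ages overlapped (exact permutation test, two-sided p = 0.0571), and the call was lost without P5 replicate 3 (adjusted p = 0.062), P5 replicate 5 (0.058), P12 replicate 1 (0.054) or P12 replicate 2 (0.062).

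Of the relay and its nuclear factors, 5 of 6 genes were lower at P12, with Ctnnb1 slightly higher under total count scaling. Ctnnb1, which encodes β-catenin, was by far the most abundant of these genes, at 18814, 18358, 19306 and 20034 at P5 and 14444, 15221, 15269 and 16912 at P12 (log2 fold change -0.31, standard error 0.08, adjusted p = 0.0049). The ages did not overlap, but the fall was only 1.24-fold. β-catenin also joins cells through cadherins, and the epithelial cadherin gene Cdh1 was at 5191, 4807, 5485 and 5434 and 3955, 4144, 4403 and 4380.4. Tcf7l2 was at 946, 1044, 958 and 994 at P5 and 283, 305, 300.2 and 358 at P12, a 3.17-fold fall (log2 fold change -1.66, standard error 0.08, adjusted p = 3.3e-08). Tcf7l1, mostly a repressor of target genes, was at 785, 695, 795 and 699.6 and 279, 249.8, 292 and 276 (log2 fold change -1.44, standard error 0.08, adjusted p = 7.2e-08). Both falls were larger than the spread between libraries by a wide margin.

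Tcf7 was at 408, 446, 359.9 and 453 at P5 and 343, 257, 245 and 191 at P12 (log2 fold change -0.68, standard error 0.16, adjusted p = 0.0029), again without overlap. Lef1, a nuclear factor and itself a target, did not pass the test, at 69.4, 72.7, 72.5 and 76.2 and 114, 101, 72.3 and 90.4 (log2 fold change 0.38, standard error 0.17, adjusted p = 0.083). Only P12 replicate 3 lay within the P5 range, and without it the adjusted p was 0.032. Axin1, the scaffold of the destruction complex, ranged from 1205 to 1357 and from 912 to 979.9 (log2 fold change -0.42, standard error 0.06, adjusted p = 1.2e-04). For Axin1 and Tcf7 the calls were lost under total count scaling (adjusted p = 0.53 and 0.15). Antisense genes share 13.7% of the exonic bases of Lef1 and 15.1% of those of Ctnnb1, with at most 3 reads on Gm43352 and between 31 and 96 on Ulk4.

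The feedback targets Axin2, Nkd1 and Nkd2 did not move as a group. Axin2 (ENSMUSG00000000142, chromosome 11, 108920349 to 108950783, forward strand), the most widely used readout of canonical signalling, was at 557, 572, 564 and 797 at P5 and 423, 402, 303 and 222 at P12, a 1.84-fold fall (log2 fold change -0.88, standard error 0.19, adjusted p = 0.0021). P5 replicate 5 was higher than the other P5 libraries, and all P12 libraries were below all of them. Leaving it out gave a log2 fold change of -0.74, and under total count scaling it was -0.50 with an adjusted p of 0.052. Nkd2, an inhibitor that binds Dishevelled, rose from 336, 334, 289 and 254 to 883, 799, 575 and 578 (log2 fold change 1.23, standard error 0.15, adjusted p = 4.3e-05). Its paralog Nkd1 was at 336, 417, 422 and 415 and 383, 388, 296 and 327 (log2 fold change -0.19, standard error 0.11, adjusted p = 0.17), with overlap between the ages. Of the 9 genes counted here as targets, Axin2, Notum, Tcf7, Rnf43 and Znrf3 fell, and Nkd2 and Lgr5 rose. Nkd1 and Lef1 did not pass the test. Of all tested genes, 28.4% were lower and 28.8% were higher at P12. The 9 need not include every target among the genes described here, so their directions do not stand for all targets.

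Other genes of the pathway outside the 60 were read from 5 lists, whose counts stand against the 28.4% of all tested genes that were lower and the 28.8% that were higher. List counts under total count scaling stand instead against 2330 lower and 8885 higher of the 16440 genes. Of 14 tested genes of Wnt secretion and planar polarity, 9 fell and 2 rose (78.6% called), with a median log2 fold change of -0.70 (0.01 over all genes), and 8 were lower and 5 higher under total count scaling. The largest changes with at least 100 normalized counts on average were those of Celsr1 (12487 ± 1439 at P5 and 2621 ± 184 at P12 (SD), log2 fold change -2.25, adjusted p = 9.6e-09), Vangl2 (a mean of 5941 at P5 and 1828 at P12, log2 fold change -1.70, adjusted p = 2.9e-08) and Ror2 (889.6 ± 44.0 at P5 and 366 ± 54.6 at P12, log2 fold change -1.29, adjusted p = 8.8e-07), which serve planar polarity and Wnt5a reception. Wls, which carries Wnt proteins to the cell surface, was at 4865 ± 503 at P5 and 5347 ± 125 at P12 (log2 fold change 0.14, adjusted p = 0.15), and it was named after its values were seen.

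Of 14 genes of the cytoplasmic relay, 9 fell and Dvl1 rose (log2 fold change 0.24, adjusted p = 0.026), 71.4% called, with a median of -0.60, but under total count scaling 7 were lower and 5 higher and Tnks2 changed sign. Dact2, an antagonist of Dishevelled, was at 893 ± 198 at P5 and 266 ± 37.2 at P12 (log2 fold change -1.75, adjusted p = 2.4e-06), Apc2 was at 339 ± 109.8 at P5 and 125 ± 29.6 at P12 (log2 fold change -1.45, adjusted p = 2.8e-04) and Apc at 6398 ± 428 at P5 and 2718 ± 413 at P12 (log2 fold change -1.24, adjusted p = 1.8e-06). Of 11 nuclear cofactors, 5 fell and 2 rose (63.6% called, near the 57.2% of all genes), with a median of -0.31, while total count scaling gave 4 in each direction, a median of 0.07 and another sign for Bcl9l. The largest fall there was that of Tle4, a Groucho co-repressor, at 1467 ± 85.6 at P5 and 273 ± 78.0 at P12 (log2 fold change -2.43, adjusted p = 2.4e-07), followed by Hmga2 at 227 ± 27.8 at P5 and 80.7 ± 32.0 at P12 (log2 fold change -1.50, adjusted p = 2.0e-04).

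Of 10 further extracellular modulators, 6 fell and 2 rose (80.0% called), with a median of -0.32, and under total count scaling 3 were lower, 2 were higher, the median was 0.05 and Kremen1 and Lrp4 changed sign. Sost, the Lrp5 and Lrp6 inhibitor known from osteocytes, was at 233 ± 42.4 at P5 and 6.72 ± 3.77 at P12 (log2 fold change -5.06, adjusted p = 8.5e-08), while the osteoblast marker Bglap was at 16799.7, 16888, 13891 and 11549 at P5 and 18606, 20156, 19813 and 15126 at P12. Gpc3, a glypican that binds Wnt and hedgehog proteins, was at 5668 ± 367 at P5 and 1373 ± 179 at P12 (log2 fold change -2.04, adjusted p = 2.3e-08). Of 7 tested textbook target genes outside the 60, 3 rose (Myc, Twist1 and Cd44), Msx2 and Bambi fell, and Ccnd1 and Prox1 did not pass the test (71.4% called). Myc was at 170.5 ± 36.0 at P5 and 490.2 ± 152 at P12 (log2 fold change 1.53, adjusted p = 1.6e-04) and Twist1 at 213 ± 51.7 at P5 and 503 ± 150.4 at P12 (log2 fold change 1.25, adjusted p = 4.5e-04), while Msx2 was at 3308 ± 194 at P5 and 1445 ± 199.7 at P12 (log2 fold change -1.20, adjusted p = 1.2e-06) and Bambi at 5242 ± 344 at P5 and 2377 ± 299.9 at P12 (log2 fold change -1.14, adjusted p = 1.6e-06). Many of these genes also answer to other signals, and no list was tested as a set.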

How the data were processed

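Enamel organs of first molars were pooled from 5 pups per library, and 4 libraries per age (P5 and P12) were sequenced after capture of polyadenylated RNA. The authors deposited unnormalized, whole-number read counts for each gene beside its name, position and length. The aligner, the counting program and its use of strand are not given in the sources used here. The sample labels name CASAVA and the build mm39, but 58 of the 60 genes have the coordinates of GENCODE M21 for GRCm38, and the deposited coordinates are given as GRCm38. Without a stated strand setting, reads of a gene and of its antisense partner cannot be told apart. Columns were assigned by their names, which are the library titles.

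The test was the quasi-likelihood test of edgeR 4.0.16 (R 4.3.3) after filterByExpr and TMM scaling, using glmQLFit and glmQLFTest without covariates. Its p-values were adjusted by the Benjamini-Hochberg method across 16440 genes. Alternatives were DESeq2 1.42.0 (named in the study's methods), limma-voom (limma 3.58.1), other scalings and filters, each library left out, a replicate block and stricter call rules. Leaving out both P5 replicate 5 and P12 replicate 4 was chosen after seeing the data. Single genes were also compared by an exact permutation test over 70 splits on normalized counts (log2, pseudocount 1), whose smallest two-sided p is 0.0286. That is the p of every gene without overlap between the ages. Levels were compared between genes per kilobase of deposited gene length. The tests were first tested on simulated data. Tests between pools measure the spread between these pools. Intervals and floors (3 reads, between 0.136 and 0.181 CPM) cover counting error only.

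All 60 genes were accounted for. Values in every library were given by rule for genes with an adjusted p under 0.05, a log2 change of at least 1 and a mean of at least 50, for the highest gene of each role per kilobase, and for the target genes. In the other lists, at most 3 genes in each direction with a mean of at least 100 were named. The genes and lists were chosen with earlier results of these data known. Sequences are from RefSeq for GRCm38.p6. Python 3.11.15, scipy 1.17.1, numpy 2.4.6, pandas 2.3.3 and matplotlib 3.10.9 were used.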

Additional observations from a re-analysis of the deposited data

Results flagged for a closer look

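Dixon's criterion picked out a library that lay far from the remaining 3 of its age in 6 of 106 combinations of gene and age. Chance gives about 1 in 20, or 5.3. P5 replicate 5 was that library for Axin2, at 797 normalized counts against 557 to 572 in the other P5 libraries, for Lrp5, at 904 against 796 to 809, and for Wnt6, at 3770.2 against 2994 to 3069.9. P5 replicate 1 was low for Nkd1, at 336 against 415 to 422. P12 replicate 4 was high for Sostdc1, at 1469 against 492 to 621. P5 replicate 3 was the one P5 library with a read of Wnt1, at 1.12 against 0 in the others.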

How the results depend on the processing

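Of the 42 called genes, 30 had the same direction and stayed under 0.05 in every alternative fit that tested them. These were 18 fits, or 17 for Wnt1 and Wnt3, which did not reach 10 counts in every library. Another 11 lost their call with an unchanged sign in at least 1 fit. Wnt4, which is among these 11, was also called in the other direction in 1. The last gene, Ctnnb1, changed sign and lost its call under total count scaling (adjusted p = 0.43). Scaling by total count alone gave 14 genes lower at P12 among those described here, and 8885 higher and 2330 lower over all genes. It turned Ctnnb1 to 0.063, Fzd2 to 0.060, Fzd6 to 0.024, Wnt4 to 0.21 and Wnt5b to 0.056 on the log2 scale. Relative to the shift of 0.38 in the median of all genes, these 5 were at -0.32, -0.32, -0.36, -0.17 and -0.32. With a minimum absolute log2 fold change of 1, 11 genes were higher and 13 lower, against 1864 and 1677 of all genes. Leaving out 1 library at a time gave 16 to 19 genes higher and 24 to 27 lower, and 4309 to 4938 higher and 4364 to 5092 lower of all genes. The replicate numbers 1, 3 and 4 occur at both ages, and the deviations of same-numbered libraries correlated between -0.036 and 0.045. Such a correlation over all genes can miss a shared origin, so it cannot show whether these libraries share more than a number. With the replicate block 16 were higher and 23 lower (3867 and 3843 of all genes). The same 6 libraries without the block gave 16 and 22 (4076 and 4041 of all genes). DESeq2 gave 18 and 25 (4951 and 4949 of all genes), and limma-voom 17 and 26 (4641 and 4726). Without regard to length, 10 of the 12 combinations of a role and an age kept the same highest gene, the exceptions being the ligands (Wnt5a) and the antagonists (Wif1) at P5.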
